A study of Mus musculus with 3 samples.

Results

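The cytosolic heat shock genes were read in mouse liver from 3 microarrays. The list held 10 genes: Hsf1, Hspa1a, Hspa1b, Hspa8, Hsph1, Hsp90aa1, Hspb1, Dnaja1, Dnajb1 and Bag3. A gene was read by every probe set that the array's annotation assigned to that gene alone. This gave 23 of the 45037 probe sets other than controls, and 9 of the 18193 genes named on the array. No probe set in the annotation named Hsf1, which was not analysed here. Values are signals, that is, hybridisation intensities on a linear scale that the authors had scaled to a common trimmed mean on each array. A gene was read mainly by its brightest probe set, the one with the highest mean log2 signal over the 3 arrays. Genes whose brightest probe set ranked in the upper 50% were kept, which corresponds to a signal of 76.9 or more. All 9 heat shock genes with a probe set were kept, by 21 probe sets, among 11341 kept genes.

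Male C57BL/6J mice received 1 of 3 diets from 6 weeks of age for 15 weeks. The control diet (Control, D12450B) supplied 10% of its energy as fat, 20% as protein and 70% as carbohydrate. The high-fat diet (HF, D12492) supplied 60% as fat, 20% as protein and 20% as carbohydrate, and the third diet (HF+SFC) was the same high-fat diet with sodium ferrous citrate, an iron salt, at 0.023% by weight. All groups shared the strain and sex, and their labelled age was 21 months, whereas the feeding times add up to 21 weeks of age. The liver cDNAs of all mice of a group were mixed, so that each group is 1 pool on 1 array. There are therefore no replicates, the variation between mice cannot be seen, and no difference was tested. Where a gene has several probe sets, their spread describes the measurement within these 3 arrays only. The study asked how iron added to a high-fat diet acts on obesity and fatty liver.

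Heat shock proteins are molecular chaperones, which bind unfolded or newly made proteins and help them to fold, to be repaired or to be degraded. In unstressed cells the transcription factor HSF1 is held inactive by chaperones, and under heat or protein damage it forms trimers that bind heat shock elements, arrays of the unit NGAAN in alternating orientation, in the promoters of chaperone genes. In the liver some of these genes are also known to vary over the day with feeding and body temperature.

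As a check of the tissue, the 5 hepatocyte markers that were read, Alb, Ttr, Apoa1, Tat and Cps1, had signals of 11071 or more on every array. None of them differed by 1.5-fold in any comparison. Over all probe sets the median signal came to 81.7 in Control, against 87.3 in HF and 80.4 in HF+SFC. The ratio of 3' to 5' signal, which rises as RNA is degraded, was 1.84, 1.65 and 1.73 for Actb in the same order, 0.708, 0.68 and 0.708 for Gapdh and 4.28, 3.23 and 3.89 for Pcx. All 3 ratios were lowest in HF, and that of Gapdh was equal in Control and HF+SFC. Those of Actb and Pcx were highest in Control, as were most heat shock genes. The part of RNA quality in their values was not tested. In a bulk tissue, fewer cells of a type and less RNA per cell cannot be told apart.

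The heat shock genes were mostly lower in HF-fed mice than in Control-fed mice. At the threshold of 1.5-fold used in the study, 4 of the 9 genes were lower (Hspa1a, Hspa1b, Hspa8 and Hsph1) and 0 were higher. Among all kept genes, 5.84% were at least 1.5-fold lower and 11.3% at least 1.5-fold higher. Hspa1a and Hspa1b are near-identical copies and not independent cases, and Hspa8 passed by its brightest probe set alone. Of the 7 genes with several kept probe sets, 2 (Hspa1b and Hsph1) were at least 1.5-fold lower by all of them. The median log2 ratio of the 9 genes was -0.50 against 0.03 over all kept genes, and 8 of 9 were below 0 against 46.9% of all kept genes. Inducible Hsp70, read as Hspa1b, had the largest difference of the 9, at 3.37-fold lower. The only gene above 0 was Hspb1. Of the 21 kept probe sets of these genes, 19 were below 0, compared with 47.6% of all kept probe sets, and 8 were at least 1.5-fold lower, compared with 6.53%.

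With iron added to the high-fat diet, the 9 genes were on the whole no nearer to their Control level than in HF-fed mice. No gene of the 9 was 1.5-fold higher or lower by its brightest probe set, where 2.88% of all kept genes were higher and 5.33% lower. The median log2 ratio was -0.14, against -0.01 over all kept genes, and 6 of 9 were below 0 against 51.2%. Over Control, HF+SFC had the same 4 genes at least 1.5-fold lower and 0 higher, with 6.88% of all kept genes lower and 9.2% higher. All 9 genes and all 21 probe sets were then below 0, with a median over genes of -0.53 against 0.02. Each array stands in 2 of the 3 comparisons, which are therefore not independent of each other. The plot of log2 ratio against signal shows where the 9 genes lie among all kept genes.

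**Figure D1:**
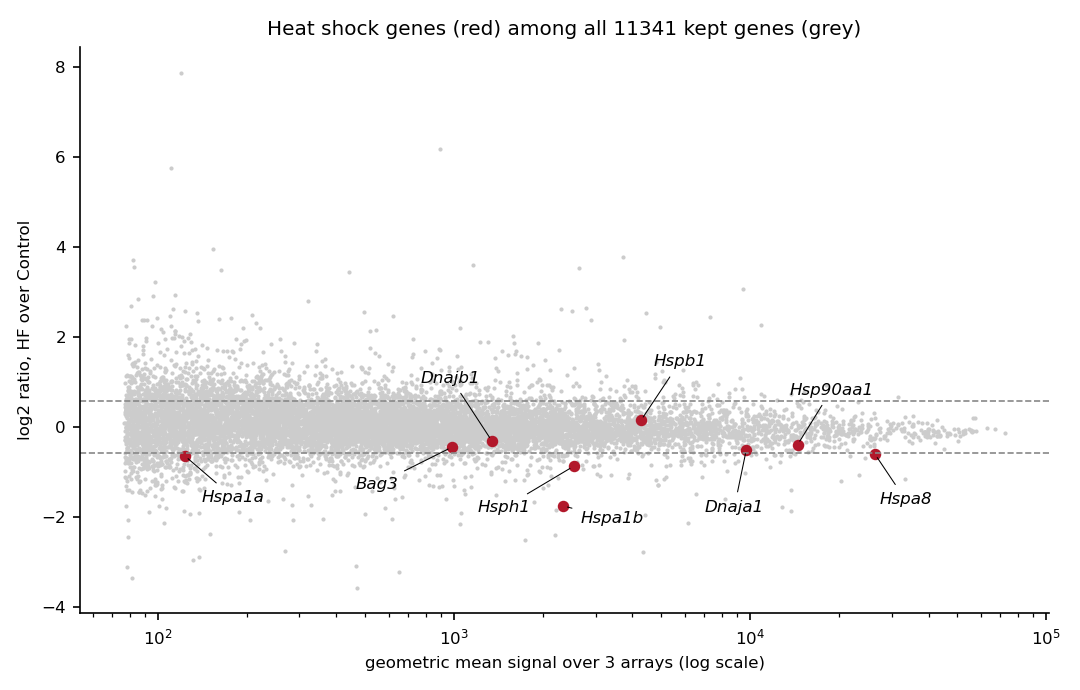
The log2 ratio of HF over Control (vertical axis) is plotted against signal (horizontal axis, log scale, geometric mean of the 3 arrays) for all 11341 kept genes in grey and the 9 heat shock genes in red, each by its brightest probe set, with dashed lines at 1.5-fold. Hspa1b at -1.75 and Hsph1 at -0.87 lie clearly under the lower line, Hspa1a at -0.64 and Hspa8 at -0.60 close to it, and only Hspb1 at 0.15 lies above 0.

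The promoter windows are given before the values, since heat shock elements are how HSF1 is known to reach these genes. RefSeq promoter windows of assembly GRCm38.p6, each 250 bases before and 50 bases after a transcription start, were at hand for 7 of the 10 genes. Hsf1, Hspa8 and Hsp90aa1 had no entry. The windows were searched on both strands for 2 adjoining units, GAANNTTC or TTCNNGAA, each of which is its own reverse complement, and for 3 units, GAANNTTCNNGAA or TTCNNGAANNTTC, each of which contains matches to the shorter motifs. A match to 2 units was found in 6 of 7 genes, compared with 17% of the 27025 genes in the table. A match to 3 units was found in 1 of 7, Hsph1, compared with 0.662%. A match describes letters in a window and does not show that HSF1 binds there.

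Hspa1b encodes the inducible Hsp70 and had the largest difference between arrays, so its whole upstream stretch is given, at chr17:34959239-34959488 on the minus strand. Capitals mark the 2-unit match, which begins 104 bases before the start.
Hspa1b upstream: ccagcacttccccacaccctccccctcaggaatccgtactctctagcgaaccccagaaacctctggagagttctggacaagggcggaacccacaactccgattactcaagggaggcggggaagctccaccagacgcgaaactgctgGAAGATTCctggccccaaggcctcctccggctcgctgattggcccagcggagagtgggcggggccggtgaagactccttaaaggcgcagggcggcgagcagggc
The window of the neighbouring copy Hspa1a differs from that of Hspa1b at 4 of 300 bases and holds the same match at the same distance, so the pair are not independent cases.

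The matches of the other genes are given with their surroundings, to let them be compared. Coordinates are those of the printed stretches, and distances run to the first base of a match. The upstream match of Hsph1 lies within chr5:149636337-149636394 on the minus strand, 54 or 33 bases before its annotated starts. Its 3-unit match lies within chr5:149636280-149636308 on the same strand, 15 or 36 bases after those starts. Hspb1 has a pair of matches within chr5:135887777-135887854 on the plus strand, the first of them 117 bases before the start. Dnaja1 has a match within chr4:40722319-40722376 on the plus strand, 124 bases before 1 of its 3 starts. Bag3 has one within chr7:128523617-128523632 on the plus strand, 42 bases after the start. Dnajb1 has no match in either of its windows.
Hsph1 before the start: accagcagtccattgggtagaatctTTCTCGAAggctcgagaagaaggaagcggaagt
Hsph1 after the start: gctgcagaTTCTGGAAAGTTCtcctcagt
Hspb1: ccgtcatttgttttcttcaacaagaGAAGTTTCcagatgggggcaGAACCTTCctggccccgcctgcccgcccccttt
Dnaja1: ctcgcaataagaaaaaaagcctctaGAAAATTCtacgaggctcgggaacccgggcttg
Bag3: tgggaccaGAAGTTTC
A 2-unit match was held by the 2 genes of this set with the largest ratios, Hspa1b and Hsph1, and by Hspa1a. It was also held by Hspb1, which was not lower in HF, and by Bag3 and Dnaja1, which were lower by less than 1.5-fold. The part of these matches in the values was not tested.

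Hspa1b was read by 3 probe sets. The brightest (1452318_a_at) showed 5879 in Control, 1743 in HF and 1249 in the HF+SFC pool. The next had 3341, 1151 and 770.2, and the dimmest had 2672, 868 and 559. Control was the highest and HF+SFC the lowest array by each of them. HF over Control was -1.75 on the log2 scale by the brightest probe set, 3.37-fold lower, with a range of -1.75 to -1.54 (SD 0.11 over 3 probe sets). This placed it at rank 36 from the lowest of the 11341 kept genes. HF+SFC over HF was -0.48, 1.40-fold lower, and ranged from -0.63 to -0.48 (SD 0.08), with the dimmest probe set alone beyond 1.5-fold, at 1.55-fold. HF+SFC over Control was -2.24, 4.71-fold lower, and ranged from -2.26 to -2.12 (SD 0.07). The pooled SD between kept probe sets of a gene, over the 5020 genes with several, was 0.35, 0.33 and 0.36 in these comparisons, and 0.20, 0.17 and 0.20 among genes in the upper 25% of signal, where Hspa1b lies.

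Hspa1a, the tandem copy of Hspa1b, encodes a nearly identical inducible Hsp70. Its single probe set (1452388_at) was dim, at 181 in Control, against 116 in HF and 88.4 in HF+SFC. The order of the arrays was that of Hspa1b. The log2 ratio was -0.64 for HF over Control (1.56-fold lower), -0.39 for HF+SFC over HF and -1.04 for HF+SFC over Control (2.05-fold lower). With 16 added to each signal, HF over Control was -0.58, just short of 1.5-fold. Transcripts of the pair share most of their sequence, and the annotation assigns each probe set to 1 of them. How much each probe set also takes up of the other copy was not tested, so the 2 genes are best read as 1 signal.

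Hspa8 encodes the constitutive Hsc70, which folds proteins in unstressed cells and strips clathrin from vesicles. Its brightest probe set (1455789_x_at) had 34684 in Control, 22872 in HF and 23117 in the HF+SFC pool. Control stood apart, and HF and HF+SFC were level. The log2 ratio of HF over Control was -0.60 (1.52-fold lower), just past the threshold. HF+SFC over HF was 0.02, and HF+SFC over Control was -0.59 (1.5-fold lower). The next probe set, at 22125, 15121 and 14765, gave -0.55 for HF over Control, the third, at 13392, 10251 and 8790, gave -0.39, and a dim one, at 197, 183 and 182, gave -0.10. In HF over Control, the spread over the 4 probe sets, SD 0.22, is larger than the distance of 3 of them from the threshold. The place of Hspa8 on the lower side of 1.5-fold therefore rests, in that comparison, on its brightest probe set. In HF+SFC over Control the other probe sets gave -0.58, -0.61 (1.52-fold lower) and -0.12 in the same order. After quantile normalisation the brightest probe set was at -0.51 for HF over Control and at -0.54 for HF+SFC over Control, inside the threshold.

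Hsph1 encodes Hsp110, a nucleotide exchange factor of Hsp70 that helps to take apart protein aggregates. By the brighter probe set (1425993_a_at) it had 4142 in Control, against 2265 in HF and 1724 in HF+SFC. By the other it had 2330, 1176 and 967. The arrays stood in the same order by each, Control highest and HF+SFC lowest. HF over Control was -0.87 and -0.99, or 1.83- and 1.98-fold lower. HF+SFC over HF was -0.39 and -0.28, inside 1.5-fold. HF+SFC over Control was -1.26 and -1.27, or 2.40- and 2.41-fold lower. Of the 7 genes with several kept probe sets, Hspa1b and Hsph1 were the 2 that were at least 1.5-fold lower by all of them, in HF over Control and in HF+SFC over Control.

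**Figure D2:**
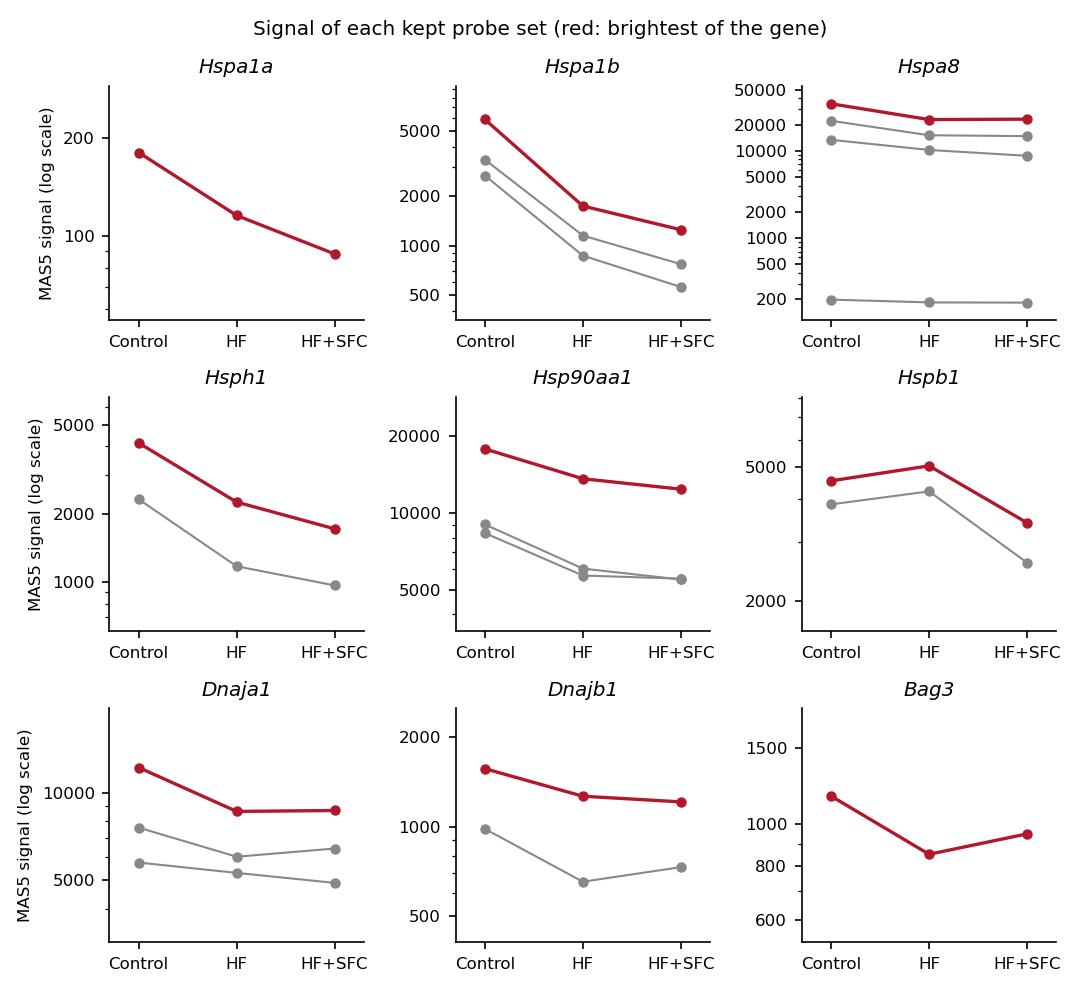
The signal of every kept probe set of the 9 heat shock genes (vertical axes, log scale, a range of its own for each gene) is plotted for the Control, HF and HF+SFC arrays, 1 pool each, with the brightest probe set in red and the others in grey. The lines of Hspa1b and Hsph1 go down from Control to HF+SFC (5879 to 1249 and 4142 to 1724 by the brightest), whereas Hspb1 peaks in HF at 5029.

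Hsp90aa1 encodes the stress-inducible isoform of cytosolic Hsp90, which matures kinases and steroid receptors and holds HSF1 inactive. Its brightest probe set (1438902_a_at) had 17854 in Control, 13633 in HF and 12404 in the HF+SFC pool. The next had 9016, 6045 and 5478, and the third had 8337, 5678 and 5518. Control was the highest array and HF+SFC the lowest by all 3. The log2 ratio of HF over Control was -0.39 by the brightest, 1.31-fold lower, and -0.58 and -0.55 by the others, so that it came near 1.5-fold without reaching it. HF+SFC over HF was within -0.14 to -0.04. HF+SFC over Control was -0.53 by the brightest (1.44-fold lower) and -0.72 and -0.60 by the others, which were past 1.5-fold. Another 2 probe sets were too dim to be kept, at 39.6, 40.3 and 32.6 for the first and at 2.54, 20.4 and 58.8 for the second, which went the opposite way.

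Hspb1 encodes Hsp27, a small heat shock protein that holds unfolded proteins and stabilises actin, and it departed from the other genes. By the brighter probe set (1422943_a_at) it had 4540 in Control, against 5029 in HF and 3410 in HF+SFC. By the other it had 3866, 4224 and 2598. HF was the highest array and HF+SFC the lowest by each. HF over Control was 0.15 and 0.13, which places Hspb1 at rank 7060 from the lowest of the 11341 kept genes. HF+SFC over HF was -0.56 by the brighter probe set, 1.47-fold lower and just short of the threshold (-0.60 after quantile normalisation, past it), and -0.70 by the other, 1.63-fold lower. HF+SFC over Control was -0.41 and -0.57.

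Markers of macrophages, stellate cells and smooth muscle cells were highest in HF as well. The summed signal of 11 macrophage and Kupffer cell markers was 21357 in Control, 29023 in HF and 21034 in the HF+SFC pool, with 3 of 11 at least 1.5-fold higher in HF over Control and 4 of 11 at least 1.5-fold lower in HF+SFC over HF. For 9 of the 10 stellate cell markers listed, those kept, the sums were 11720, 19226 and 13728, with 7 of 9 higher in HF over Control and 6 of 9 lower in HF+SFC over HF. By their brightest probe sets, all of these macrophage and stellate markers were above 0 in HF over Control and below 0 in HF+SFC over HF. For comparison, the share of all kept genes reaching 1.5-fold upward from Control to HF was 11.3%. From HF to HF+SFC, 5.33% of all kept genes reached it downward. The shares below 0 were 46.9% and 51.2%, in the same order. The other kept probe set of Pdgfrb, a stellate cell marker, went the opposite way, at -1.88 and 2.11. The kept markers of smooth muscle cells (3 of 5) summed to 1263, 3314 and 2583. The other types were mixed. The sums of 8 endothelial markers were 8965, 9735 and 8851, with 3 of 8 below 0 in HF over Control and Lyve1 alone past 1.5-fold. Of 3 kept cholangiocyte markers, summing to 324, 326 and 257, Sox9 was lowest in HF, and of 2 kept lymphocyte markers, summing to 457, 899 and 342, Ccl5 was highest and Cd8a lowest there. The summed hepatocyte signal was 239311, 223965 and 228815. The part of these cells in the values of Hspb1 was not tested. The other 8 heat shock genes were all highest in Control.

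The co-chaperones of the Hsp40 family, which deliver clients to Hsp70 and start its ATP hydrolysis, were inside 1.5-fold by their brightest probe sets. Dnaja1, a farnesylated cytosolic Hsp40, had 12187 in Control, against 8619 in HF and 8682 in HF+SFC by its brightest probe set (1416288_at). Its other probe sets had 7582, 6028 and 6430 and 5756, 5305 and 4903. Control was highest by all 3, while the order of HF and HF+SFC varied with the probe set. The log2 ratio of HF over Control was -0.50 (1.41-fold lower), with a range of -0.50 to -0.12 over 3 probe sets (SD 0.19), and HF+SFC over HF lay between -0.11 and 0.09.

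Dnajb1, the Hsp40 that is induced by heat and helps Hsp70 to take HSF1 off DNA, had 1567 in Control, 1266 in HF and 1212 in the HF+SFC pool by its brighter probe set (1416755_at). The other had 983, 653 and 731. HF over Control was -0.31 and -0.59, so that the dimmer probe set alone passed 1.5-fold, at 1.51-fold lower. HF+SFC over HF was -0.06 and 0.16, on either side of 0.

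Bag3, which links Hsp70 and small heat shock proteins to selective autophagy, had 1163 in Control, against 853 in HF and 951 in HF+SFC by its only kept probe set (1422452_at). HF was its lowest array. By brightest probe sets it was the only one of the 9 genes to stand above HF by more than 0.1 in HF+SFC, at 0.16 (1.12-fold higher). The dimmer probe set of Dnajb1 gave 0.16 as well. For Bag3 the log2 ratio of HF over Control was -0.45 (1.36-fold lower) and HF+SFC over Control was -0.29. Among genes in the upper 25% of signal, to which Bag3 belongs too, the pooled SD between probe sets was 0.20 for HF over Control, and that for HF+SFC over HF was 0.17, so that the second of its differences is smaller than that spread.

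**Figure D3:**
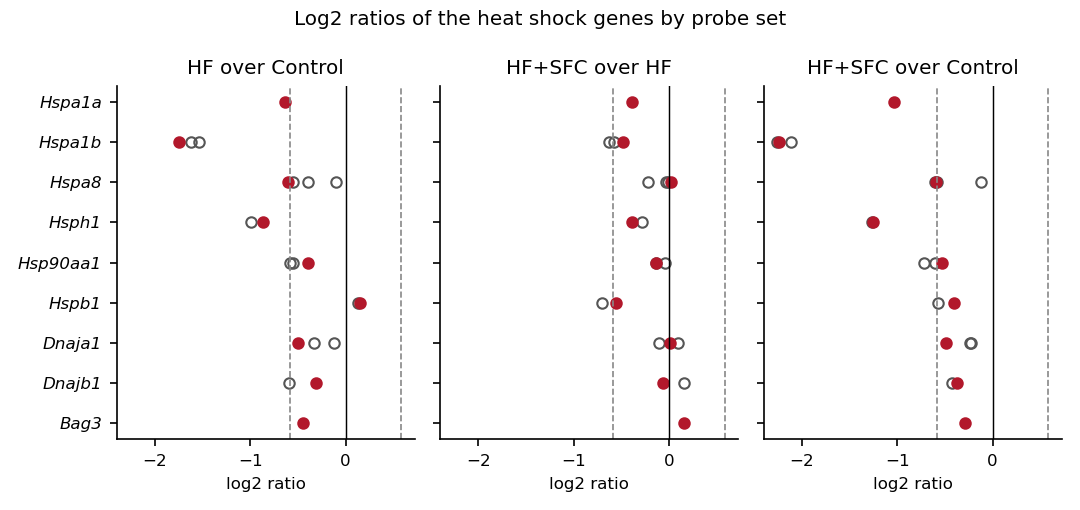
The log2 ratios of all kept probe sets of the 9 heat shock genes (horizontal axes) are shown for each comparison, with the brightest probe set filled and the others open, and with dashed lines at 1.5-fold. For HF over Control 19 of 21 points lie below 0, those of Hspb1 being the exceptions, and for HF+SFC over Control all 21 do.

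Other genes of protein folding were read from lists of known function. Among all kept genes in HF over Control, 46.9% were below 0, 5.84% at least 1.5-fold lower and 11.3% higher. In HF+SFC over HF, 51.2% were below 0, 5.33% lower and 2.88% higher. In HF+SFC over Control, 6.88% were lower and 9.2% higher. Of 36 other cytosolic chaperones and co-chaperones, 34 were read and kept. By brightest probe sets, 24 of 34 were below 0 in HF over Control, with a median of -0.17. At least 1.5-fold lower was 1 of 34, and 0 were higher. The 1 gene was Chordc1, an Hsp90 co-chaperone that is itself induced by heat, at 4228 in Control, 2369 in HF and 1988 in the HF+SFC pool. Its log2 ratios were -0.84 in HF over Control and -1.09 in HF+SFC over Control, and it is 1 of 2 genes of the list with a 3-unit match in the promoter window, the other being Dnajb6, at -0.14 for HF over Control. Dnajb5 at -0.57 and Hspb8 at -0.53 came next by their brightest probe sets, but the probe sets of Hspb8 ranged from -0.53 to 1.67. Stip1, the Hop adaptor between Hsp70 and Hsp90, was at -0.45, whereas Cdc37, Fkbp4 and St13, which also serve Hsp70 or Hsp90, lay between -0.05 and 0.02.

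In HF+SFC over HF the same list had a median of -0.01, or 0.01 after median centring, with 1 of 34 at least 1.5-fold lower and 0 higher. The lower gene was Cryab, a small heat shock protein, at 225 in Control, against 321 in HF and 207 in HF+SFC, a log2 ratio of -0.63, while its other probe set gave 0.17. Hsf2, a relative of HSF1, was at -0.50 but dim, with signals of 86.4, 99.6 and 70.4. Hspa4 was at -0.46, with probe sets from -0.46 to 0.22. In HF+SFC over Control the median was -0.13. There Chordc1, Hspa4 (-0.74), Dnaja4 (-0.73) and Ahsa2 (-0.62) were at least 1.5-fold lower. Hspa4, a further Hsp110, ranged from -0.74 to -0.06 over 3 probe sets, and Dnaja4 from -0.73 to -0.11. Fkbp5, a co-chaperone of Hsp90 that glucocorticoids induce, was the 1 higher gene, at 1683 in Control, 2030 in HF and 2552 in the HF+SFC pool (0.60).

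The chaperonin TRiC, a cytosolic ring that folds actin and tubulin, showed small ratios, mostly of a common sign by the brightest probe sets. All 8 subunits were below 0 in HF over Control, with a median of -0.15, and in HF+SFC over HF the median was 0.09 (0.05 after quantile normalisation) and 7 of 8 were above 0. None reached 1.5-fold by its brightest probe set. The largest was Cct5 at -0.44, with signals of 5447, 4018 and 4846. Other kept probe sets departed from this in HF over Control. Those of Cct4 ranged from -0.33 to 0.73, those of Cct3 from -0.60 to -0.16 and those of Cct2 from -0.07 to 0.07.

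Of 8 other stress genes known to have heat shock elements, 6 were read. None of them differed by 1.5-fold in any comparison by its brightest probe set. In HF over Control the kept probe sets of Zfand2a ranged from 0.10 to 0.87, beyond 1.5-fold at the upper end. Their median was 0.00 in HF over Control. Hspd1 and Hspe1, the mitochondrial chaperonin pair, each hold a 3-unit match in their windows and were at -0.01 and -0.18. Hspd1 had 17942 in Control, against 17804 in HF and 17465 in HF+SFC. Hmox1, which degrades heme, was at 0.01, and Serpinh1, the collagen chaperone, at 0.09, with probe sets from 0.09 to 0.54.

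Chaperones of other compartments were read for comparison. In the endoplasmic reticulum, by brightest probe sets, 12 of 13 were below 0 in HF over Control, against 46.9% of all kept genes. Their median was -0.21. At least 1.5-fold lower were 3, against 5.84% of all kept genes: Creld2 (-1.28), Dnajb9 (-0.84) and Manf (-0.64). Hspa5, the Hsp70 of that compartment, had 27029 in Control, 18915 in HF and 18871 in the HF+SFC pool, or -0.51, with probe sets from -0.60 to -0.24. In HF+SFC over HF the median was 0.02, or -0.03 after quantile normalisation or lowess, and no gene reached 1.5-fold, the largest being Creld2 at 0.49. Of 8 mitochondrial chaperones and proteases, Clpx alone was at least 1.5-fold lower in HF over Control, at -0.83, and the median was -0.13. None of the 11 genes of the endoplasmic reticulum list with a promoter window held a 2-unit match, compared with 17% of all genes with a window. Whether that count differs from the share was not tested.

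**Figure D4:**
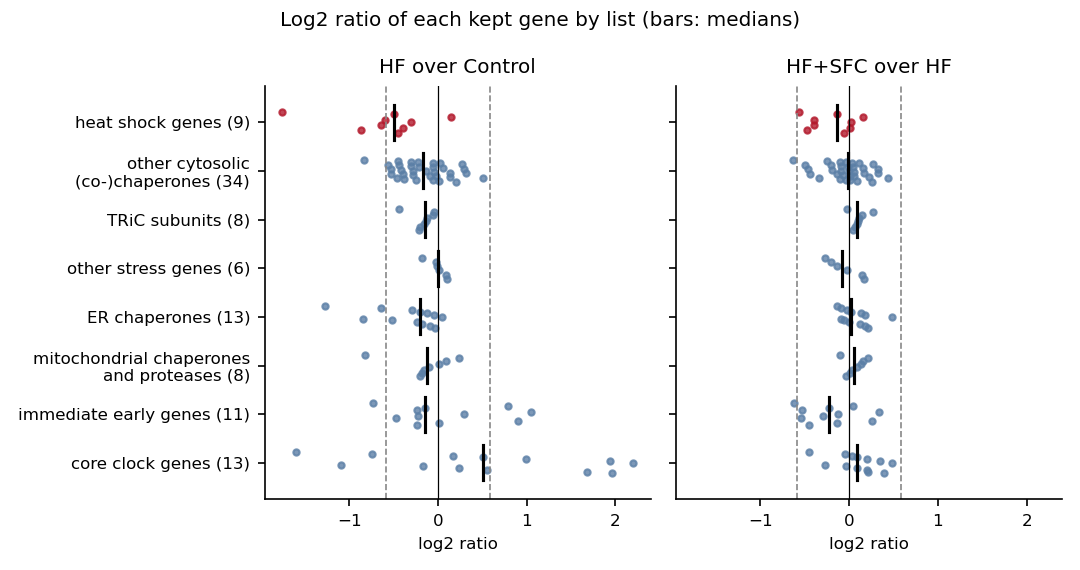
Each point is the log2 ratio of 1 kept gene by its brightest probe set (horizontal axes), for HF over Control and HF+SFC over HF, by gene list with the number of kept genes in brackets; black bars are medians and dashed lines mark 1.5-fold. The heat shock genes, in red, have a median of -0.50 for HF over Control, compared with -0.17 for other cytosolic chaperones and -0.21 for endoplasmic reticulum (ER) chaperones, and of -0.14 for HF+SFC over HF.

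Other genes that vary with handling, body temperature or time of day were read beside the heat shock genes. Core clock genes differed most in HF over Control, with 5 of 13 at least 1.5-fold higher and 3 lower. Among all kept genes 11.3% were higher and 5.84% lower. Dbp, a clock output factor, had 1406 in Control, against 5398 in HF and 6891 in HF+SFC (1.94), Ciart was at 2.20 and Per3 at 1.96. Clock, at 1873, 879 and 898, was at -1.09. Arntl was at -1.60 by its brightest probe set and at 0.33 by another. In HF+SFC over HF none of the 13 reached 1.5-fold by its brightest probe set, while the probe sets of Per3 ranged from -0.18 to 0.70. Cirbp, an RNA-binding protein induced by mild cold, had 257 in Control, 296 in HF and 334 in the HF+SFC pool, or 0.21 and 0.17. The study reported a significantly lower body temperature in HF-fed than in Control-fed mice, measured earlier in the feeding. The part of body temperature in these values was not tested. Immediate early genes went both ways in HF over Control, with 3 of 11 higher, Fos at 1.05, Klf6 at 0.91 and Atf3 at 0.79, and 1 lower, Dusp1 at -0.73. Per the study's methods all mice were fasted from early morning before collection, with no separate hour stated for each group, and the part of time of day in the values of the heat shock genes was not tested.

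The genes whose pattern over the 3 arrays was most like that of Hspa1b were sought among 3796 bright genes with several kept probe sets. Likeness was the distance between log2 signals, each gene centred on its own mean. The 5 nearest were Slc25a30, a mitochondrial carrier, at a distance of 0.23, Cdkn1a, which encodes the cell cycle inhibitor p21, at 0.32, Slc22a5, the carnitine transporter, at 0.34, Crat, carnitine acetyltransferase, at 0.35, and Chka, choline kinase alpha, at 0.37. Slc25a30 had 12484 in Control, against 3200 in HF and 2128 in HF+SFC. Its HF+SFC over HF of -0.59 ranged from -0.63 to -0.55 over 4 probe sets. Cdkn1a had 2044, 679 and 590.0. In HF+SFC over HF the other 4 lay between -0.25 and 0.02 by their brightest probe sets, nearer to 0 than Hspa1b at -0.48. With 3 arrays, many genes can share such an order, and the distances are a description only.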

How the data were processed

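Biotin-labelled cRNA from 1 pool of liver cDNA per group (Control, HF and HF+SFC) was measured on Affymetrix GeneChip mouse arrays. MAS5 signals, linear intensities, were deposited, scaled by the authors so that the 2% trimmed mean was 500.0 on each array. The version of MAS5 and detection calls are not given in the sources used here. Scaling removes any difference in total signal between arrays. The number of arrays limits the precision.

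Of the 45101 probe sets, 64 were controls. Of the rest, 34945 named 1 gene in the platform annotation, 932 named several and were not used for genes, and 9160 were unlisted. All 23 probe sets of the heat shock genes matched RefSeq by Entrez identifier. Log2 ratios of the deposited signals were computed without a pseudocount, and genes at or beyond 1.5-fold were counted. No p-value was computed, since each group has 1 array. The counting code was run on simulated data with planted 2-fold differences and less noise than the spread between probe sets here. That checks the code only and says nothing about genes near 1.5-fold. Members and lists were chosen with earlier results of these data known. Pdgfrb, a stellate cell marker, and the TRiC subunits Cct2 and Cct3 were named after their values were seen. The genes named were all members, up to 3 kept genes of each other list with the largest ratios per comparison, and the 5 nearest in pattern to the member of widest range; Lyve1, Sox9, Ccl5, Cd8a, Ahsa2, Fkbp5, Dusp1, Clock, Arntl, Stip1, Cdc37, Fkbp4, St13, Dnajb6, Cct5, Hspa5, Hspd1, Hspe1, Hmox1 and Serpinh1, where outside that rule, were named after their values were seen. Promoter windows came from RefSeq (GRCm38.p6); the sequence of proteins was not used here. Alternatives were quantile normalisation, lowess (fraction 0.3), median centring, no filter, the upper 25% of signal, a pseudocount of 16, the median over probe sets, probe sets without a suffix for several transcripts, and a 2-fold threshold. Python 3.11.15, pandas 2.3.3, numpy 2.4.6, statsmodels 0.14.6 and matplotlib 3.10.9 were used.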

Additional observations from a re-analysis of the deposited data

How the results depend on the processing

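The number of heat shock genes at least 1.5-fold lower in HF over Control, 4, was 2 without probe sets whose suffix marks several transcripts (of 7 read, beside 6.34% of all kept genes) and 1 at a 2-fold threshold (1.69%), and was 3 or 4 in the other settings (4.14% to 15.1%). Without those probe sets Hsph1 and Hspb1 had none left, and Hspa8 was read by its dim probe set, at -0.10 in HF over Control and -0.12 in HF+SFC over Control. The number at least 1.5-fold lower in HF+SFC over HF, 0, was 1 under quantile normalisation, lowess, the median over probe sets and without those suffixes. The gene was Hspb1 in the first 3 of these (-0.60, -0.59 and -0.63) and Hspa1b (-0.63) in the last. The medians of the heat shock genes kept their sign in all 24 readings, taken over the alternatives and the 3 comparisons. Their ranges were -0.52 to -0.46 (HF over Control), -0.19 to -0.04 (HF+SFC over HF) and -0.58 to -0.49 (HF+SFC over Control). Leaving out the filter could not change the values of these genes, since their brightest probe sets stayed the same. For single genes 183 values were read under the alternatives. Those of genes past 1.5-fold as deposited, a part of the 183, kept their sign. Ratios near 0 turned sign 7 times, for Hspa8, Dnaja1 and Dnajb1 in HF+SFC over HF. Among all kept genes, 327 were higher and 605 lower in HF+SFC over HF as deposited, 453 and 459 after quantile normalisation, and 448 and 462 after lowess. The median of the other cytosolic chaperones in that comparison, -0.01, was 0.01 after median centring and by the median over probe sets. With 1 pool per group, neither variation between mice nor between hybridisations can be seen, and dim probe sets such as that of Hspa1a are the least precise. No paired analysis was possible because the groups share replicate number 1 only, with 1 array each.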
